A study of Mus musculus with 8 samples.

Results

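The genes described here are 10 genes of epithelial cell contacts, measured in RNA from small intestinal crypts. They are the claudin genes Cldn2, Cldn3, Cldn4, Cldn7 and Cldn15, the tight junction genes Tjp1, Ocln and F11r, and the adhesion genes Cdh1 and Epcam. Their rows were matched by gene symbol alone, as 10 of the 55880 genes in the deposited count table, each with 1 row. The list itself was chosen with earlier results of these data known. All 10 were among the 14897 genes that passed the filter on low counts. The data are 8 RNA-seq libraries from C57BL/6N mice before irradiation, 4 labelled wild type and 4 labelled miR-29ab1-/-, a deletion of the cluster that holds Mir29a and Mir29b-1. No other allele or agent is named. The sources used here give neither age, sex and litter nor whether the deletion is confined to some cells. The titles number the libraries within a group without naming animals, so p-values measure the spread between these libraries, which may be technical in part.

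Neighbouring epithelial cells are held together by an apical belt of tight junctions, with adherens junctions below it. Claudins are the membrane proteins that form the strands of the tight junction, and the set of claudins a cell makes fixes which ions pass between cells: some claudins seal the gap and others form pores. In the small intestine the pore-forming claudin-2 is known as a protein of crypts, whereas claudin-15 supplies the sodium leak that nutrient uptake needs. MicroRNAs lower the output of messenger RNAs through short matches to their seed, mostly in the 3' UTR.

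The sequences of the microRNAs named in the genotype label are shown because a match to their seed in a 3' UTR is how a direct target is looked for. The mature microRNAs are given from RefSeq (GRCm38.p6), 5′ to 3′, with the seed (bases 2 to 8) in capitals. miR-29a-3p comes from chromosome 6 (31062673 to 31062694, minus strand) and miR-29b-3p from Mir29b-1 on the same chromosome (31063025 to 31063047, minus strand). A second copy of miR-29b-3p, from Mir29b-2, and miR-29c-3p lie on chromosome 1 and are not named in the labelled deletion.
miR-29a-3p: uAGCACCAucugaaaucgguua
miR-29b-3p: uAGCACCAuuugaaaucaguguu
miR-29c-3p: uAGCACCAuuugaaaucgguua
The 3 share 1 seed, AGCACCA, whose matching site in a transcript is TGGTGCT. Of the 10 genes, 1 held this site in its longest annotated 3' UTR (GENCODE M21, GRCm38), and that gene was Ocln, which encodes occludin. The site occurred in 15.5% of the 12378 tested genes with a 3' UTR of at least 50 bases.

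The Ocln site lies 1906 bases into a 3' UTR of 2307 bases, and it is followed by an A, which makes the 8-base site TGGTGCTA. Cldn1 and Nkrf are shown beside it because both have been reported as miR-29 targets in intestinal epithelium. Cldn1 encodes a sealing claudin and Nkrf a repressor of NF-kappaB. Each window is 30 bases of the transcript strand on GRCm38, with the site in capitals. All 4 are on the minus strand, at chr13:100496890-100496919 for Ocln, chr16:26357697-26357726 and chr16:26357570-26357599 for Cldn1, and chrX:36887702-36887731 for Nkrf.
Ocln: cttttccaacgTGGTGCTaccactgcaggc
Cldn1, first site: tggcctcttgtTGGTGCTgttttgttttga
Cldn1, second site: gatttgcatctTGGTGCTatcacttaatta
Nkrf: tgaagatacacTGGTGCTttgatgaaaaag
A match is a description of letters and does not show binding.

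The libraries held 13879472 to 17368666 counts each, and the 10 genes had between 444 (Cldn4) and 39789 (Epcam) counts in a library. In the check of the labels, Lncpint, a noncoding RNA next to the microRNAs of the labelled deletion, was counted 1831 to 2608 times per knockout-labelled library and 11 to 16 times per wild-type library. Mir29b-1 itself was counted 2 to 7 times per knockout-labelled library and 0 times per wild-type library, and Mir29a 0 times in every library. Counts over Mir29b-1 only under the knockout label are not what a deletion of that hairpin would give. They are few, however, and the state of the locus was not tested, so the groups are called by their labels throughout. Marker genes of the crypt were present: the 8 stem cell markers (Lgr5 and others) summed to 1511 to 4173 CPM (counts scaled to library size by TMM) and the 8 Paneth cell markers to 18918 to 60315 CPM. The 8 endothelial markers summed to 3.97 to 6.01 CPM, with Emcn at 0 in every library, and the 8 fibroblast markers to 11.5 to 67.8 CPM. The 8 T cell markers summed to 127 to 348 CPM in the wild-type libraries and 101 to 207 CPM in those labelled knockout, and the 8 B and plasma cell markers to 35.2 to 227 and 34.6 to 68.3 CPM. The log2 fold changes of all 8 T cell markers and all 7 B and plasma cell markers tested were below 0, with 0 past the edgeR threshold. Also below 0 were all 7 tuft, 8 proliferation, 6 myeloid and 4 fibroblast markers tested. All 8 Paneth cell and 4 red blood cell markers tested were above 0. The remaining marker lists had both signs, and 0 markers of any list passed. The part of these cells in the junction genes' values was not tested.

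None of the 10 genes differed between the groups past the threshold. By edgeR's quasi-likelihood test 0 of 10 had an adjusted p under 0.05, against 3 of the 14897 genes tested (0.0201%). The same test gave 0 of 10 an unadjusted p under 0.05, against 402 of the 14897 genes. DESeq2 also called 0 of 10, against 0.109% of the genes it tested, and limma-voom 0 of 10, against 0.0134%. The members' log2 fold changes, labelled knockout over wild type, ran from -0.30 (Cldn2) to 0.32 (Cldn7). Of the 10, 8 were above 0 and 2 below, with a median of 0.079, beside a median of 0.011 and 52% above 0 over all genes tested. The authors' deposited table gives each of the 10 genes an adjusted p of 0.999959. Their list for a heat map holds 670 genes, beside 55880 in the whole table, and 0 of the 10.

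The direction of most of these values rested on 1 library, labelled knockout replicate 4. In deposited FPKM, a level per length of transcript, that library was the highest of the 8 for 8 of the 10 genes, second highest for Ocln and lowest for Cldn2. Without it, the log2 fold change was above 0 for 2 genes (Cldn3 and Ocln) and below 0 for 8, with a median of -0.076. Over all genes in that fit, 7357 of 15173 were above 0, with a median of -0.0068. When library totals were used in place of TMM scaling, 5 were above 0 and 5 below, beside 5389 of all 14897 genes above 0. Labelled knockout replicate 4 had the lowest TMM factor of the 8 (0.8355), which raises its scaled levels, and its FPKM scale was similar. Per library total it stayed highest for Epcam, Cldn7, F11r, Cldn4 and Tjp1 but not for Cldn3, Cldn15 or Cdh1. Libraries of smaller total had more counts, such as 6030 Cldn3 counts in wild type replicate 1 against 4848. Its top rank for Cldn3, Cldn15 and Cdh1 thus depended on the scaling.

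**Figure D1:**
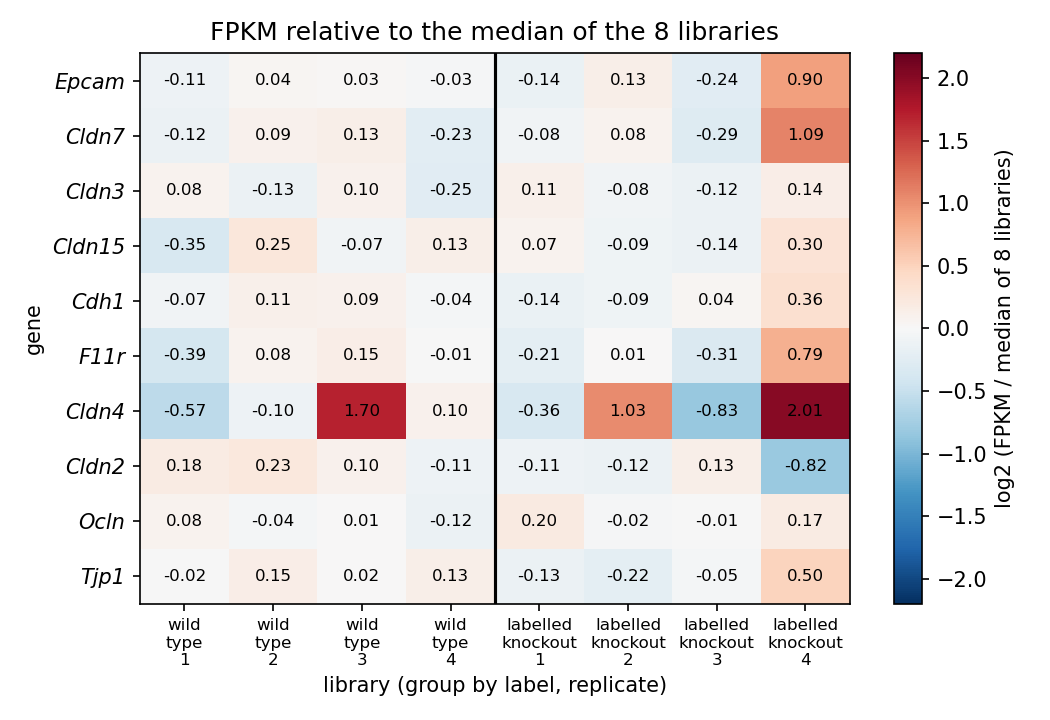
Deposited FPKM of each gene (rows, ordered by mean level) in each library (columns), as log2 of the ratio to the gene's median over the 8 libraries; red is above and blue below the median. The column of labelled knockout replicate 4 is red for 9 genes and blue for Cldn2, and the row of Cldn4 has the widest range.

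The adhesion genes come first, since they include the most abundant transcript of the group. Epcam encodes the epithelial adhesion molecule EpCAM, which binds and stabilises claudin-7, and its loss is known to cause a tufting disease of the gut. Epcam (ENSMUSG00000045394, chromosome 17, 87635979 to 87651129, plus strand, GRCm38) was at 706, 782, 779 and 744 FPKM in wild type replicates 1 to 4 and at 691, 831, 643 and 1418.5 FPKM in labelled knockout replicates 1 to 4. The groups overlapped, and labelled knockout replicate 4 was 1.91 times the median of the other 7 libraries. The log2 fold change was 0.25 (SE 0.28, edgeR adjusted p = 0.994), with a 95% interval for the ratio of 0.772 to 1.82. Without labelled knockout replicate 4 it was -0.058.

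Cdh1 encodes E-cadherin, the calcium-dependent adhesion protein of adherens junctions. Its gene (ENSMUSG00000000303) lies on chromosome 8 from 106603351 to 106670246. Cdh1 was at 165, 187, 185 and 169 FPKM in the wild-type libraries and at 157, 163, 178 and 222 FPKM in those labelled knockout. The group means were 176 ± 11.3 and 179.9 ± 29.7 FPKM (SD, n = 4 each), and the groups overlapped. Its log2 fold change was 0.025 (SE 0.17, edgeR adjusted p = 0.995), with a 95% interval for the ratio of 0.777 to 1.33.

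**Figure D2:**
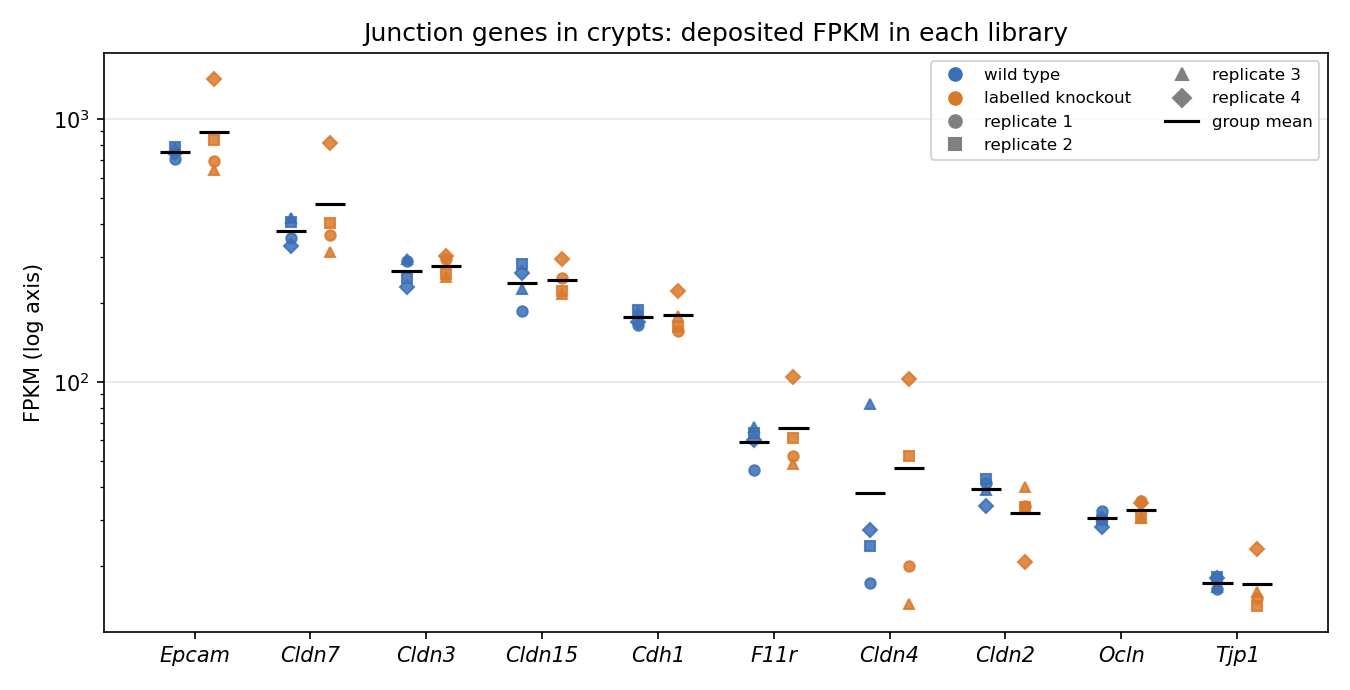
Deposited FPKM (log axis) of the 10 genes, ordered by mean level, with 1 point per library (blue, wild type; orange, labelled knockout; shape, replicate number) and a bar at each group mean. The groups overlap for all 10 genes, and the orange diamond of replicate 4 is the highest point for 8 of them.

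Among the claudins, Cldn7 and Cldn3 had the highest mean FPKM over the libraries. Claudin-7, the partner of EpCAM, lies along the sides of the cell as well as at the tight junction. Cldn7 (ENSMUSG00000018569, chromosome 11, 69964779 to 69967885, plus strand) was at 353, 408, 421 and 328 FPKM in the wild-type libraries and at 363, 404, 314 and 815 FPKM in those labelled knockout. The first 3 knockout-labelled libraries fell within or just below the wild-type range, and replicate 4 was 2.24 times the median of the other 7 libraries. The log2 fold change was 0.32 (SE 0.30, edgeR adjusted p = 0.994), and -0.064 without replicate 4. Both Cldn7 and Epcam were highest in labelled knockout replicate 4. The ratio of Cldn7 to Epcam FPKM ran from 0.441 to 0.574 over the 8 libraries, with the top value in that same library.

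Claudin-3 is a sealing claudin, and its gene stands close to Cldn4 on chromosome 5. Cldn3 (ENSMUSG00000070473, 134986214 to 134987472, plus strand) was at 288, 249, 293 and 230.4 FPKM in the wild-type libraries and at 294, 258, 251 and 301 FPKM in those labelled knockout. Its group means were 265 ± 30.2 and 276 ± 25.3 FPKM (SD, n = 4 each), and the highest library was 1.31 times the lowest. The log2 fold change was 0.055 (SE 0.14, edgeR adjusted p = 0.994), with a 95% interval for the ratio of 0.831 to 1.30.

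Cldn4 was the most variable of the 10 genes. Claudin-4 is a sealing claudin that many epithelia raise under stress. Cldn4 (ENSMUSG00000047501, chromosome 5, 134945119 to 134946934, minus strand) was at 17.2, 23.7, 82.7 and 27.3 FPKM in wild type replicates 1 to 4, and at 19.9, 52.3, 14.3 and 103 FPKM in labelled knockout replicates 1 to 4. The values of 3 libraries, wild type replicate 3 and labelled knockout replicates 2 and 4, lay above all the others, so the high values crossed the groups. The highest library was 7.17 times the lowest. The spread within groups (SD 1.15 on the log2 CPM scale) was larger than that of 97.8% of the genes tested. Its log2 fold change was 0.32 (SE 0.67, edgeR adjusted p = 0.994), with a 95% interval for the ratio of 0.434 to 3.58. A change of 2-fold in either direction lies inside this interval. Without labelled knockout replicate 4 the value was -0.39, and without wild type replicate 3 it was 1.04.

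The 2 pore-forming claudins differed in level and in pattern. Claudin-2 passes sodium and water, and claudin-15 passes sodium. Cldn2 (ENSMUSG00000047230, chromosome X, 139800828 to 139811386, plus strand) was at 41.3, 42.8, 39.0 and 33.7 FPKM in the wild-type libraries and at 33.7, 33.4, 39.9 and 20.6 FPKM in those labelled knockout. Replicate 4 was the lowest library at 0.529 of the median of the other 7, and replicate 3 lay among the wild-type values. The log2 fold change was -0.30 (SE 0.19, edgeR adjusted p = 0.994), with a 95% interval for the ratio of 0.601 to 1.10. Leaving out replicate 4 of the knockout label gave -0.13, and leaving out replicate 3 gave -0.43 (edgeR adjusted p = 1.00 and 0.576).

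Cldn15 (ENSMUSG00000001739, chromosome 5, 136966616 to 136975858, plus strand) was several times more abundant than Cldn2 in every library. It was at 186, 282, 225 and 259.6 FPKM in the wild-type libraries and at 249, 222, 216 and 293 FPKM in those labelled knockout. The lowest and second highest of the 8 values were both wild type, and the groups overlapped. With all libraries the log2 fold change was 0.038 (SE 0.18, edgeR adjusted p = 0.994), with a 95% interval for the ratio of 0.774 to 1.36. The ratio of Cldn2 to Cldn15 FPKM was 0.169 ± 0.0394 in the wild-type group and 0.135 ± 0.0480 in the knockout-labelled group (SD, n = 4 each), with 0.0704 in replicate 4.

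**Figure D3:**
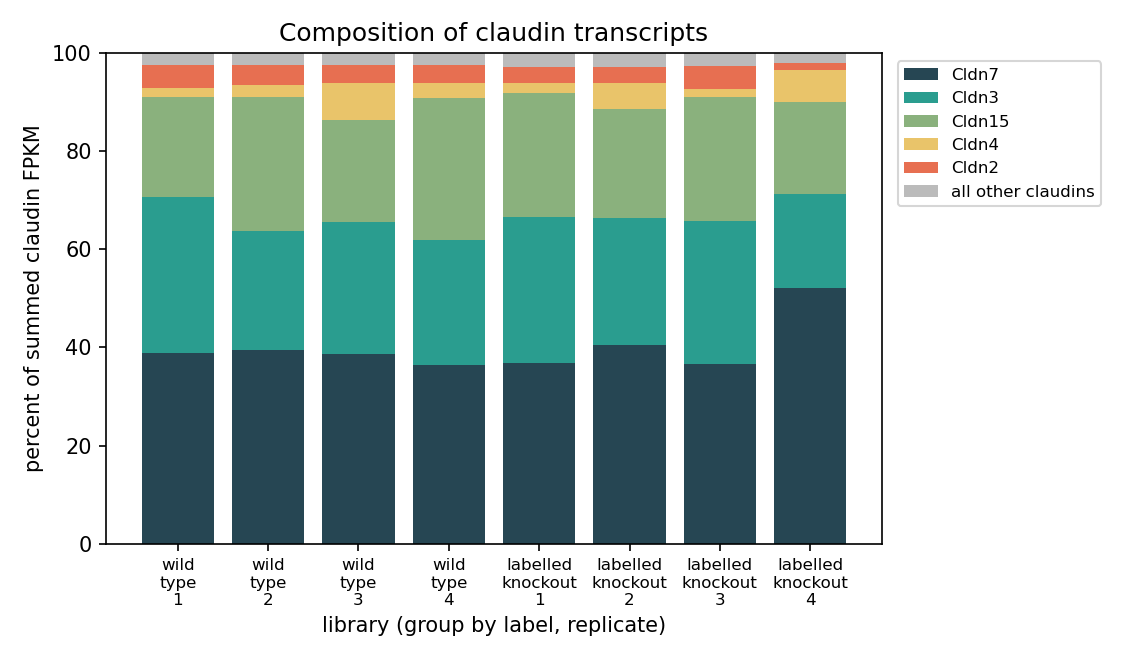
Share of the summed claudin FPKM (y axis, percent, bars stacked to 100) taken by each of 5 claudins and by all other claudin genes, for each library (x axis). Cldn7, Cldn3 and Cldn15 take most of each bar, and in labelled knockout replicate 4 Cldn7 takes 52.0% and Cldn2 takes 1.32%.

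As a whole, the crypt claudins were a mix of few genes. The table holds 24 claudin genes, of which 8 passed the filter on low counts and 7 were at 0 in every library. The 5 claudins described above took 97.2 to 97.9% of the summed claudin FPKM in each library. Cldn7 took 38.4 ± 1.37% in the wild-type group and 41.5 ± 7.27% in the group labelled knockout, Cldn3 27.1 ± 3.28% and 26.1 ± 4.85%, and Cldn15 24.3 ± 4.36% and 22.8 ± 3.08% (SD, n = 4 each). These differences between group means were smaller than the SD of the group labelled knockout. Summed claudin FPKM was 857 to 1088 in 7 libraries and 1565.5 in labelled knockout replicate 4.

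The scaffold and the other membrane proteins of the tight junction follow. Occludin, encoded by Ocln (ENSMUSG00000021638, chromosome 13, 100496507 to 100552718, minus strand), is a membrane protein that joins the claudin strands, and its transcript holds the miR-29 site printed above. Ocln was at 32.4, 29.8, 31.0 and 28.2 FPKM in the wild-type libraries and at 35.2, 30.4, 30.5 and 34.7 FPKM in those labelled knockout. The groups overlapped, and the highest library was 1.25 times the lowest. Its log2 fold change was 0.10 (SE 0.11, edgeR adjusted p = 0.994), with a 95% interval for the ratio of 0.907 to 1.27, so a transcript increase above 1.27-fold lies outside the interval. The spread of Ocln within groups was in the lowest 4.17% of the genes tested.

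Tjp1 encodes ZO-1, the scaffold that ties claudins and occludin to actin. Tjp1 (ENSMUSG00000030516, chromosome 7, 65296165 to 65527781, minus strand) was at 16.3, 18.2, 16.7 and 18.0 FPKM in the wild-type libraries and at 15.1, 14.1, 15.9 and 23.3 FPKM in those labelled knockout. The first 3 knockout-labelled libraries lay below every wild-type library and the fourth above every one. Its log2 fold change was -0.020 (SE 0.16, edgeR adjusted p = 0.997) and -0.20 without replicate 4.

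F11r encodes JAM-A, an immunoglobulin-like adhesion protein at the tight junction. F11r (ENSMUSG00000038235, chromosome 1, 171437535 to 171464603, plus strand) was at 46.2, 63.8, 67.4 and 60.1 FPKM in the wild-type libraries and at 52.4, 61.1, 48.8 and 104 FPKM in those labelled knockout. The groups overlapped, and replicate 4 was 1.74 times the median of the other 7 libraries. Its log2 fold change was 0.16 (SE 0.24, edgeR adjusted p = 0.994) and -0.13 without replicate 4.

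**Figure D4:**
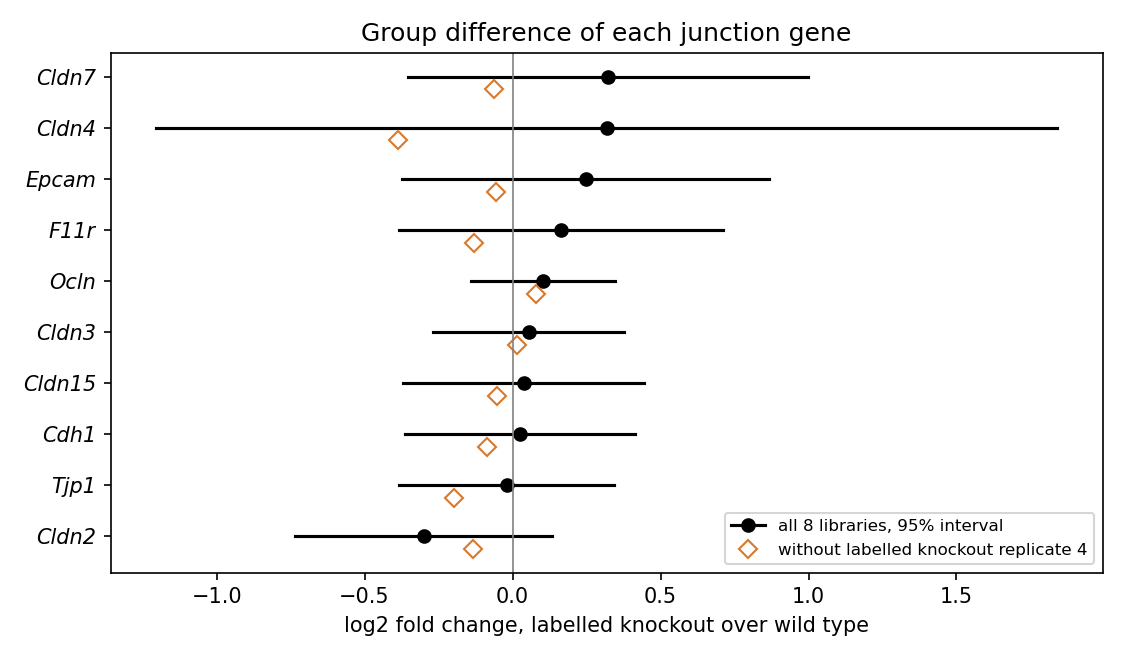
Log2 fold change of each gene, labelled knockout over wild type (x axis), with all 8 libraries (filled points, with 95% intervals) and without labelled knockout replicate 4 (open diamonds). All 10 intervals include 0, that of Cldn4 is the widest, and the diamonds lie below 0 for 8 genes.

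The intervals state how large a difference these libraries leave possible. For 9 of the 10 genes the 95% interval of the ratio lay within 2-fold either way, and for 5 (Cldn3, Cldn15, Tjp1, Ocln and Cdh1) within 1.5-fold. The exception at 2-fold was Cldn4, and Cldn7 lay at the edge, with an interval of 0.783 to 1.999. No gene of the 10 had groups that did not overlap in TMM-scaled CPM, against 1.53% of the genes tested. Without labelled knockout replicate 4, 1 gene (Tjp1, lower in the knockout-labelled libraries) had groups that did not overlap, against 3.93% of the genes tested. Without labelled knockout replicate 3, 1 gene (Cldn2, also lower) did, against 8.9%.

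By mean FPKM over the 8 libraries the order was Epcam, Cldn7, Cldn3, Cldn15, Cdh1, F11r, Cldn4, Cldn2, Ocln and Tjp1. Neighbours were in this order in 8 of 8 libraries for Epcam over Cldn7, Cldn7 over Cldn3, Cldn15 over Cdh1, Cdh1 over F11r and Ocln over Tjp1. Cldn3 lay above Cldn15 in 6 of 8 libraries, F11r above Cldn4 in 7, Cldn4 above Cldn2 in 3 and Cldn2 above Ocln in 6. The order of these neighbours was thus not the same in every library, and differences in level between genes were not tested.

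Several marker lists set labelled knockout replicate 4 apart. The 10 enterocyte markers, genes of the absorptive cells that leave the crypt for the villus, summed to 58939 CPM in that library and to 10916 to 25618 CPM in the other 7. The 8 stem cell markers summed to 1511 CPM there against 2427 to 4173, and the 8 proliferation markers to 502 CPM against 783 to 1231. By gene, 9 of 10 enterocyte markers (all but Fabp1) were highest in that library, and 6 of 8 stem cell markers and 8 of 8 proliferation markers were lowest. The 8 Paneth cell markers also had their lowest sum there, 18918 CPM against 20771 to 60315, with 4 of 8 genes lowest. The 6 red blood cell markers summed to 55.0 CPM there against 2.69 to 15.0, with Slc4a1 at 0 in every library. The part of these lists in the values of Epcam, Cldn7, F11r, Cldn4 and Cldn2 was not tested. In bulk RNA, fewer cells of a type and less RNA per cell cannot be told apart.

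The 3 libraries with the highest Cldn4 also had the highest sums of the 8 goblet cell markers, genes of the mucus-secreting cells, but single markers did not all follow the sum. That sum was 11160 CPM in wild type replicate 3, 9610 in labelled knockout replicate 2 and 8633 in labelled knockout replicate 4, and 6251 to 8158 CPM in the other 5 libraries. In labelled knockout replicate 4, Muc2 and Zg16 were the highest of the 8 libraries, whereas Agr2 (212 FPKM) and Atoh1 (17.6 FPKM) were the lowest and Spdef (16.6 FPKM) was the second lowest. The part of goblet cells in the Cldn4 values was not tested.

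**Figure D5:**
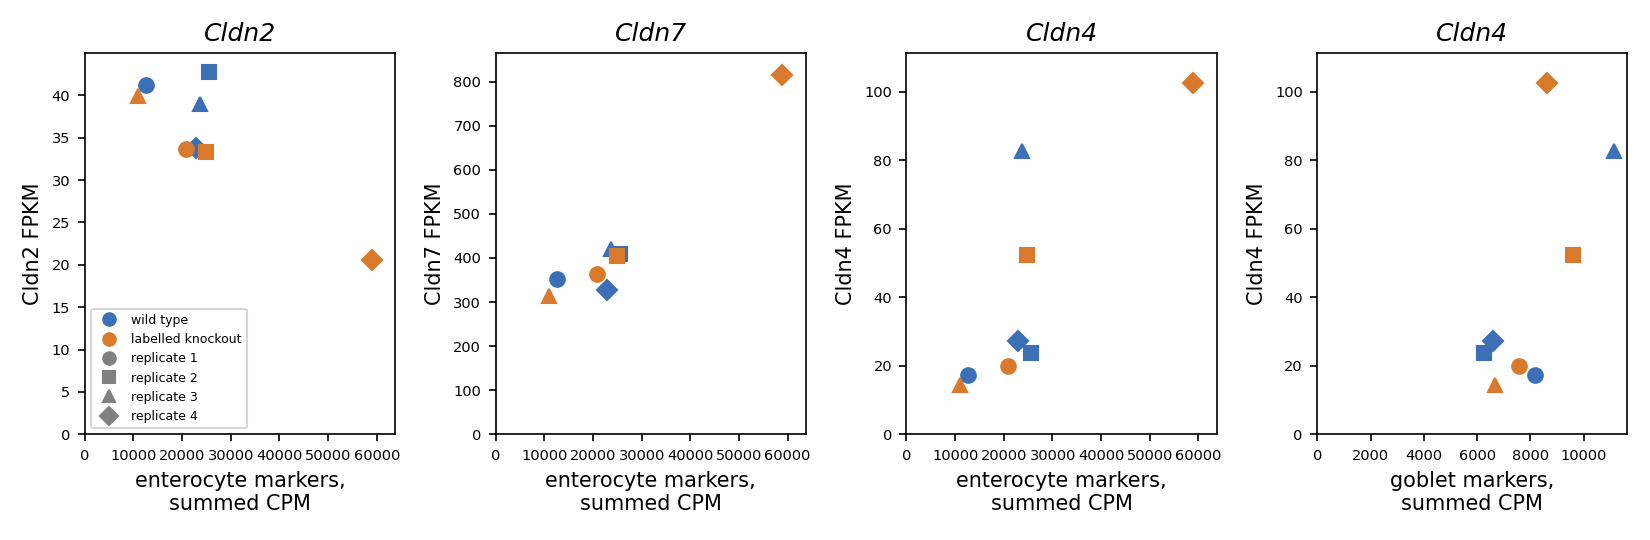
FPKM of Cldn2, Cldn7 and Cldn4 (y axes) against the summed CPM of 10 enterocyte markers (the first 3 panels) or 8 goblet markers (last panel), with 1 point per library (blue, wild type; orange, labelled knockout; shape, replicate number). Labelled knockout replicate 4 lies far to the right in the enterocyte panels, lowest for Cldn2 and highest for Cldn7 and Cldn4.

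The promoters of the 2 claudins at the extremes of that library, Cldn2 the lowest and Cldn4 the highest relative to the others, are shown, named here after their values were seen, from RefSeq (GRCm38.p6), 250 bases before to 50 after the start. Capitals mark TATAAA, the core of a TATA box, or GGGCGG, the GC box, on either strand, and the 2 motifs do not overlap here. The Cldn2 window is chrX:139800558-139800857 (plus strand) and the Cldn4 window chr5:134946885-134947184 (minus strand), both printed 5′ to 3′ along the gene.
Cldn2: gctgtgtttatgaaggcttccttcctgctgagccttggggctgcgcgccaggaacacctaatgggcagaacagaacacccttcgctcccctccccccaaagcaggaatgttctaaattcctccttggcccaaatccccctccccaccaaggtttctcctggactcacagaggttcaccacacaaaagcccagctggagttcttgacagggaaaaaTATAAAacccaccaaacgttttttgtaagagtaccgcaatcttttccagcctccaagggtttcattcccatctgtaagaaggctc
Cldn4: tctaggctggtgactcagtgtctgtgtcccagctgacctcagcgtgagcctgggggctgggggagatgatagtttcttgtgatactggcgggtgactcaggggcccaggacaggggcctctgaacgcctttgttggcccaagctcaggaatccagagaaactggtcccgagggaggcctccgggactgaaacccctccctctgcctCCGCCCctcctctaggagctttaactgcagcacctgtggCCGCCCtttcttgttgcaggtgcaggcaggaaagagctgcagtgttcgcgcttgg
The table holds 11 windows for 9 of the members. TATAAA was in 1 of these 11 windows, that of Cldn2, with its first base at position -35, against 13.6% of all 32851 windows. GGGCGG was in 9 of the 11 windows, from 8 members, against 35.7% of all windows. The member windows held 51.3% (Cldn2) to 68.0% (Ocln) G and C, against a median of 52.7% over all windows. The part of base composition in the share with GGGCGG was not tested. Motif hits are matches of letters, and no factor was measured.

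The other genes of the junctions gave no call either. Of 19 other claudins listed, 18 were in the table and 3 passed the filter, 0 of them past the edgeR threshold. Cldn23 and Cldn12 had the highest levels among them, at 9.99 to 24.2 and 7.83 to 11.5 FPKM. The log2 fold change of Cldn23 was 0.32 (SE 0.27) and 0.030 without labelled knockout replicate 4, and that of Cldn12 -0.042 (SE 0.14). Cldn8 was low, at 8 to 98 counts per library, and had 0.35 (SE 0.67). Cldn1 had 0 to 4 counts per library, 10 in all, and was not tested, so a difference in Cldn1 was not detectable at this depth. Nkrf was at 2.23 ± 0.278 FPKM in the wild-type group and 2.04 ± 0.409 in the knockout-labelled group (SD, n = 4 each), and its log2 fold change was -0.13 (SE 0.19, edgeR adjusted p = 0.994). Glul, glutamine synthetase and another reported target, had 0.26 (SE 0.13, edgeR adjusted p = 0.994), and its 3' UTR held no TGGTGCT.

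Of 24 other tight junction genes listed, 20 were tested and 0 passed the threshold, with 15 above 0, 5 below and a median of 0.13. The 2 with the smallest p were Amotl1 and Magi1. Amotl1 encodes angiomotin-like 1, which binds polarity scaffolds and the Hippo effector YAP. It was at 0.275, 0.242, 0.259 and 0.113 FPKM in the wild-type libraries and at 0.470, 0.567, 0.611 and 0.358 FPKM in those labelled knockout. All 4 knockout-labelled libraries lay above all 4 wild-type ones, at 17 to 105 counts per library. Amotl1 was 1 gene with groups that did not overlap among 84 junction genes tested, the 10 members included (1.19%), a share near the 1.53% of all genes tested. Its log2 fold change was 1.17 (SE 0.31, edgeR adjusted p = 0.994), with a range of 0.95 to 1.30 over the fits that each lacked 1 library; DESeq2 gave an adjusted p of 0.139. Its 3' UTR of 5826 bases held 1 TGGTGCT. Magi1, a membrane-associated scaffold, had 0.15 (SE 0.12, edgeR adjusted p = 0.994).

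In the adherens junction list 13 of 16 genes were tested, 0 passed, 10 were above 0 and the median was 0.063. The smallest p belonged to Nectin2, an adhesion protein, with a log2 fold change of 0.10 (SE 0.12), and Eps8, an actin regulator of microvilli, with 0.28 (SE 0.35). All 10 desmosome genes were tested, 0 passed, 7 were above 0 and the median was 0.066. Dsc2, a desmosomal cadherin, had 0.23 (SE 0.17), and Evpl, the linker envoplakin, had -0.29 (SE 0.25). Each of these 4 had an edgeR adjusted p of 0.994.

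Of 8 connexin genes 3 were tested and 0 passed, with Gjb2 at -0.15 (SE 0.25) and Gjb1 at 0.049 (SE 0.18). Among the relatives of EpCAM and the proteases that cut it, 4 of 5 were tested and 0 passed. The protease inhibitors Spint2 and Spint1 had log2 fold changes of 0.22 (SE 0.21) and 0.20 (SE 0.29), and Spint1 had -0.18 without labelled knockout replicate 4. Of 24 transcription factors and contractility genes tied to junctions, 19 were tested and 0 passed, with a median of 0.011. Hnf4g, a nuclear receptor of enterocytes, had 0.24 (SE 0.23) and Ovol2, a repressor of mesenchymal genes, 0.18 (SE 0.18). Of the factors on this list known to repress Cdh1 in mesenchymal cells, Snai1, Snai2, Zeb2 and Twist1 were too low to test. Zeb1, with 4 to 20 counts per library, had -0.44 (SE 0.51, edgeR adjusted p = 0.994), and the related Snai3 had 0.095 (SE 0.35). These 6 are named outside the rule for named genes, after their values were seen.

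Over these lists, 74 genes beside the 10 were both tested and had a 3' UTR of at least 50 bases, and 15 of them (20.3%) held TGGTGCT, against 15.5% of all such genes. Of the 15, 8 had values above 0 and 7 below on the log2 scale, with a median of 0.026, and 0 passed the threshold. Among the 15 were Ctnnb1, which encodes beta-catenin, at 0.064, Dsp, desmoplakin, at 0.025, and Vcl, vinculin, with 2 sites, at 0.040. The 8-base site was in Ppl, at -0.021, and Ybx3, at -0.11. These genes are named here after their values were seen.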

How the data were processed

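Counts per gene in 8 libraries were used as the authors deposited them. HISAT2 and DESeq2 were used per the submitters' processing notes, which name no version. Not given in the sources used here are the counter, strand setting, annotation and build. Coordinates equal GENCODE M21 (GRCm38) for all 10 genes and for 99.47% of 55144 shared identifiers. The deposited FPKM are counts over gene length with 1 scale factor per library, as checked on the values. The authors' deposited table also holds log2 fold changes, p-values and group means (a signal, counts over size factors), and sentences that quote it say so. The test was edgeR 4.0.16 (R 4.3.3): quasi-likelihood, robust, TMM, filterByExpr, Benjamini-Hochberg over all genes tested, threshold 0.05. SE is the absolute log2 fold change over the square root of F, and intervals use the t distribution with the test's degrees of freedom. Alternatives were RLE, DESeq2 1.42.0, limma-voom (limma 3.58.1), other filters, a replicate block, each library left out and, chosen after seeing the data, library totals without TMM. Scripts were tested on simulated data. Members and gene lists were chosen with earlier results of these data known. Named are the 10 members, in each list the called genes (3 at most) or, with no call, the 2 of smallest p, the 2 highest other claudins, Cldn1, Nkrf, Lncpint and Mir29b-1. Mir29a was added beside Mir29b-1 after its counts were seen. No pair of libraries of a group agreed within sampling noise.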

Additional observations from a re-analysis of the deposited data

Results flagged for a closer look

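Cldn4 in wild type replicate 3 was at 82.7 FPKM, far from the other 3 wild-type libraries, the nearest of which was at 27.3 FPKM. The gap was 0.846 of the group's whole range, above Dixon's 95% critical value for 4 samples. This was 1 flag among 20 groups of 4 examined, and chance flags about 1 in 20. Labelled knockout replicate 4 came close to that value for Cldn7 (0.819), Tjp1 (0.801), F11r (0.780) and Epcam (0.757) without passing it.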

How the results depend on the processing

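No member passed the threshold under any alternative run, nor in any fit that left out 1 library. Over all genes the count of calls was 3, against 21 with DESeq2 and 5 with no filter on low counts. The median of the members was 0.079 and ranged from -0.076 to 0.12 over fits lacking 1 library. Members with groups that did not overlap numbered 0, and 0 to 1 with 1 library left out. With library totals in place of TMM, Cldn3 was at -0.035, Cldn15 at -0.047 and Cdh1 at -0.062, and the median of all genes moved from 0.011 to -0.068. The following turned sign in at least 1 fit with a library left out, with log2 fold changes of -0.010 to 0.11 for Cldn3, -0.39 to 1.04 for Cldn4, -0.064 to 0.48 for Cldn7, -0.061 to 0.13 for Cldn15, -0.20 to 0.055 for Tjp1, -0.13 to 0.29 for F11r, -0.087 to 0.084 for Cdh1 -0.058 to 0.38 for Epcam, -0.26 to 0.69 for Cldn8, -0.12 to 0.059 for Cldn12, -0.2 to 0.46 for Eps8, -0.32 to 0.039 for Gjb2, -0.069 to 0.21 for Gjb1, -0.18 to 0.35 for Spint1 and -0.0094 to 0.24 for Ovol2; the cause was not tested. The replicate numbers showed no pairing of the libraries in these values. Deviations of same-numbered libraries correlated between -0.388 and 0.0745 across genes, and not every library correlated best with its own number. Whether same-numbered libraries shared a litter or a preparation cannot be told from these correlations. With a replicate block the count of calls was 2, members past the threshold 0 and the median 0.080. Of the 10 members, only Cldn2 and Ocln kept their sign in every alternative and every fit with a library left out.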
